A study of Mus musculus with 9 samples.

Results

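Described here are the transcripts of H2-DM and H2-DO, the pair of non-classical MHC class II molecules that govern which peptides the classical class II molecules carry. The set holds 5 genes, H2-DMa, H2-DMb1, H2-DMb2, H2-Oa and H2-Ob, of the 8388 genes that a probe set of the arrays names alone. Its members are every probe set to which the platform's annotation gives 1 of these symbols. There are 6 on the array design of experiments 2 and 3 and 5 on that of experiment 1. A further probe set, 98034_at, carries the symbols of both H2-DMb1 and H2-DMb2 and is given under both names. Total RNA of day 10 dendritic cells from mice was measured on 9 Affymetrix arrays, with 3 arrays for each of the groups wild-type B6, CIITA-/- and IAb-/- (group names as labelled). CIITA is the transactivator of class II genes, and IAb refers to the I-A molecule of the b haplotype, whose beta chain gene is H2-Ab1. Titles number the arrays as experiments 1, 2 and 3, with 1 array of each group in each; 1 CIITA-/- array carries no number and was given the only one left in its group. No source used here gives the allele that was deleted, the age of the mice, the culture conditions or whether a group's arrays stand for separate mice. The p-values below therefore rest on array-to-array spread alone, part of which may be technical.

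H2-DM is a dimer of an alpha chain, H2-DMa, and a beta chain, encoded in the mouse by a pair of neighbouring genes, H2-DMb1 and H2-DMb2. It works in late endosomes, where it removes the invariant chain fragment from newly made class II molecules and lets peptides that bind tightly take its place. H2-DO, a dimer of H2-Oa and H2-Ob, binds H2-DM and holds back its activity; it is best known from B cells and from some dendritic cells. Class II genes and their accessory genes share promoter elements, an X box bound by the RFX complex and a Y box bound by NF-Y, and CIITA acts through the proteins assembled on them.

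Because the DMb genes read lower in all 3 experiments of CIITA-/- cells and H2-Oa did not, the stretches before the gene starts that hold letters of these elements are shown, taken from the RefSeq promoter table of build GRCm38.p6. Each runs 70 bases on the gene strand and is aligned on ATTGG, the core letters of the Y box. Capitals mark ATTGG and the X box letters searched for, AACNNATG and AGCAAC; these overlap where an AGCAAC is followed by NNATG. H2-DMb2 lies at chr17:34145109-34145178, H2-DMb1 at chr17:34153080-34153149, H2-Oa at chr17:34092286-34092355, H2-Ob at chr17:34238798-34238867 and, for comparison, H2-Eb1, which encodes the I-E beta chain, at chr17:34305758-34305827, all on the plus strand.
H2-DMb2: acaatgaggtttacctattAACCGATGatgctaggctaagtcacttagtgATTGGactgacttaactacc
H2-DMb1: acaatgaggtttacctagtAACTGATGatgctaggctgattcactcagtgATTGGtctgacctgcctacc
H2-Oa: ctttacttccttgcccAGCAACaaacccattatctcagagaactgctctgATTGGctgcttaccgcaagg
H2-Ob: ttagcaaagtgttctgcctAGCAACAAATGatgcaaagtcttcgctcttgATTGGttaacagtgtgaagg
H2-Eb1: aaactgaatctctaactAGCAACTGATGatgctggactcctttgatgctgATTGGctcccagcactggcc

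Both DMb stretches are nearly one sequence, with 61 of 70 bases identical (87.1%) when laid side by side without gaps. Other pairs of members shared between 21 and 26 of 70. The leftmost X match began 31 bases before ATTGG in H2-DMb2, H2-DMb1 and H2-Ob, 33 in H2-Eb1 and 34 in H2-Oa. That match was AACNNATG in the DMb genes and AGCAAC in H2-Ob, H2-Eb1 and H2-Oa. The distances therefore start at different letters and do not compare the DMb genes with the others. H2-Oa held only the shorter AGCAAC. Neither of the 2 windows listed for H2-DMa held such a pair, and 1 of them held an ATTGG. Nor did the window of H2-Aa, the I-A alpha chain, which held an ATTGG without an X match in range. Over all 32851 windows of 300 bases in that table (250 before the start and 50 after it), ATTGG occurred on either strand in 37.4%, AACNNATG in 8.86% and AGCAAC in 14.8%. An X match 25 to 40 bases before ATTGG on the gene strand occurred in 67 windows (0.204%), and on either strand in 122 (0.371%). The letters and their spacing were chosen after these sequences had been read, so the matches are a description. H2-DMb2, H2-DMb1, H2-Oa and H2-Ob held such a pair and H2-DMa did not, and the level of H2-Ob was within noise. The part of these letters in the differences described next was not tested.

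Levels are the deposited intensities in arbitrary units, 1 per probe set and array. Many lie below 0 (20.98% to 23.8% of an array in experiments 2 and 3, 24.8% to 26.4% in experiment 1), so a noise limit was set from how far values fell below 0, at the 95th percentile of those distances: 1701 in experiments 2 and 3 and 2203 in experiment 1. A value under the limit gives only a bound. A fold is then written "at least", with the brighter array set against the limit. The cells bore dendritic cell markers, of which 10 of 11 measured lay above the limit on all 6 arrays of experiments 2 and 3 (a 12th, Cd209a, was not analysed here). Their summed level was 279068 to 284711 in B6, 258433 to 273176 in CIITA-/- and 268645 to 292026 in IAb-/-. The bacterial spike-in controls stood apart on the IAb-/- arrays: their mean log2 level, relative to the mean of their table, was 0.44 in experiment 2 and -0.41 in experiment 3, against -0.08 to 0.08 on the other 4 arrays. Ciita's own probe set lay under the limit on all 9 arrays, and H2-Ab1 was still bright on the IAb-/- arrays; neither is a check of its group, as the place of the probes against the deletions is unknown here. In bulk RNA, fewer cells with a transcript and less of it per cell cannot be told apart.

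**Figure D1:**
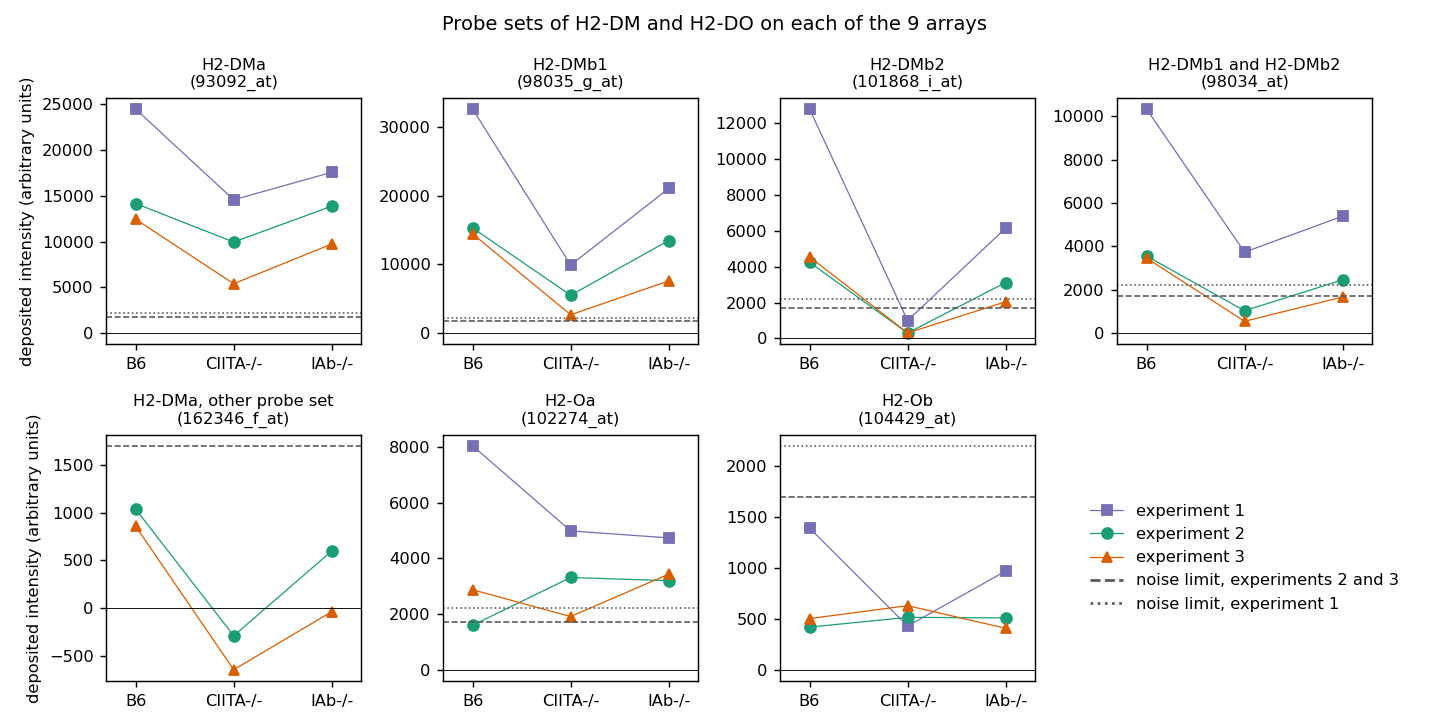
Deposited intensity (arbitrary units, linear axis) of every member probe set in B6, CIITA-/- and IAb-/- cells. Each point is 1 array, lines join the arrays of an experiment, and dashed and dotted lines are the noise limits of 1701 and 2203. The lowest point of each experiment is CIITA-/- in the 3 DM panels of the top row that name 1 gene and in that of 98034_at, whereas H2-Oa has no common order and H2-Ob lies under the limits throughout.

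The first comparison asks which peptide loading transcripts differ between CIITA-/- and B6 cells. All 3 DM genes were lower in CIITA-/- cells in each experiment. By value the difference was largest for H2-DMb2, whose CIITA-/- level lay within noise, so its size is known only as a bound. H2-DMb2 passed the test over all probe sets, though not under every alternative given below. H2-DMb1 and H2-DMa were lower by smaller amounts by value and did not pass. H2-Oa went in both directions and H2-Ob was not measured above noise.

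H2-DMb2, a beta chain of H2-DM, was measured by 101868_i_at. It read 12775, 4235 and 4541 in B6 (experiments 1, 2 and 3 in that order, here and below), and 996, 300 and 303 on the CIITA-/- arrays. Every CIITA-/- value lay under the noise limit and every B6 value well above it. The measured level in CIITA-/- cells was 7.79%, 7.09% and 6.68% of B6, and the noise limit bounds it at no more than 17.2%, 40.2% and 37.5%. This is at least 5.80-fold lower in experiment 1, at least 2.49-fold in experiment 2 and at least 2.67-fold in experiment 3. In experiments 2 and 3 together, 4388 ± 217 in B6 stood against 302 ± 2.3 in CIITA-/- (SD, n = 2 each).

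The fit over those 6 arrays (limma on log2 values, with intensities under the 30th percentile of the table, 123.5, raised to it) gave a log2 difference of -3.86 (SE 0.24, 95% interval -4.49 to -3.23) with an adjusted p of 0.036. A probe set counts as called at an adjusted p under 0.05. The fold is on this raised scale and gives no size below the limit. H2-DMb2 was the only member called, and 7 of 9312 probe sets tested (0.0752%) were called lower. By p it ranked 7th of the 9312. The call was lost when any 1 of the 6 arrays was left out, with limma adjusted p between 0.078 and 0.43, while the log2 difference stayed between -3.91 and -3.81. It was also lost with intensities raised to the noise limit (log2 -1.37, limma adjusted p = 0.46) with no filter on dim probe sets (adjusted p = 0.108) and with the experiment as a block over the same 6 arrays (adjusted p = 0.201).

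H2-DMb1, the other beta chain, was measured by 98035_g_at and lay above the limit on all 9 arrays. B6 arrays read 32665, 15330 and 14460, and CIITA-/- arrays 9913, 5507 and 2664. CIITA-/- cells therefore had 30.3%, 35.9% and 18.4% of the B6 level, and in experiments 2 and 3 the groups did not overlap. The fit gave a log2 difference of -1.96 (SE 0.46, 95% interval -3.15 to -0.76), which did not pass over all probe sets (limma adjusted p = 0.597) and lay between -2.48 and -1.43 when 1 array was left out. Its rank by p was 138 of 9312.

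The probe set annotated to both beta chain genes, 98034_at, was dimmer. It read 10324, 3546 and 3455 in B6 and 3728, 1028 and 541 in CIITA-/- cells, with the last 2 values under the limit. In experiment 1 the CIITA-/- level was 36.1% of B6, and in experiments 2 and 3 it was at least 2.08-fold and 2.03-fold lower. The log2 difference was -2.23 (SE 0.38, limma adjusted p = 0.391). As the DMb genes are close copies, how much each of these probe sets takes up from the other gene is uncertain; probe positions were not analysed here.

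H2-DMa, the alpha chain, had the smallest difference of the DM genes. Its main probe set, 93092_at, read 24466, 14151 and 12429 in B6 and 14559, 9943 and 5387 in CIITA-/- cells, all above the limit. That is 59.5%, 70.3% and 43.3% of B6, again with no overlap between the groups in experiments 2 and 3. The fitted log2 difference of -0.86 (SE 0.36, 95% interval -1.81 to 0.09) did not pass (limma adjusted p = 0.884) and moved between -1.30 and -0.42 when 1 array was left out. A further probe set for the gene, 162346_f_at, is on the design of experiments 2 and 3 alone and was within noise on all 6 arrays, from -645 to 1037, so it gives no level.

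A gap in 1 direction was common over the arrays. Groups that do not overlap, with CIITA-/- lower than B6, were found for 18.1% of the 4618 probe sets above the noise limit on at least 2 arrays of experiments 2 and 3. A lower CIITA-/- value in all 3 experiments was found for 477 of 3417 probe sets (14%) that both designs share and that lay above the limit on at least 2 arrays of each. The 3 DM genes and 98034_at met both descriptions, and H2-Oa neither. Ranked by log2 difference from the lowest, H2-DMb1 was 29th of 9312 and H2-DMa (93092_at) 354th. No rank by size is given for H2-DMb2 and 98034_at, whose CIITA-/- values were under the noise limit.

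H2-Oa, the alpha chain of the H2-DM inhibitor, showed no common direction. Its probe set, 102274_at, read 8048, 1600 and 2873 in B6 and 4990, 3315 and 1913 in CIITA-/- cells. CIITA-/- cells had 62.0% of the B6 level in experiment 1 and 66.6% in experiment 3, but a level at least 1.95-fold higher in experiment 2, where the B6 value lay under the noise limit. The groups of experiments 2 and 3 overlapped. The fitted log2 difference was 0.23 (SE 0.40, limma adjusted p = 0.954), and its 95% interval, -0.82 to 1.28, holds changes of either sign. It was -0.19 when B6 replicate 2 was left out and -0.16 without CIITA-/- replicate 2, the array whose title has no number, so the sign rests on experiment 2.

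H2-Ob, the beta chain of H2-DO, read 1393, 419 and 503 in B6, 430, 515 and 630 in CIITA-/- and 970, 510 and 408 in IAb-/- cells (104429_at). All 9 values were within noise, so no level or fold can be given for it. The limma difference of 0.31 (SE 0.21, adjusted p = 0.931) was computed on such values.

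B cells are the cells best known for H2-DO, so their markers are given beside it. Of 13 measured B cell markers, 7 were under the limit on all 6 arrays of experiments 2 and 3, among them Cd79a and Cd22, and none was called. Blnk, Pax5 and Ighm lay above it on all 6. The summed level was 24753 to 28060 in B6, 26437 to 28714 in CIITA-/- and 27061 to 27467 in IAb-/-, ranges that overlap. Whether a few such cells add to the H2-Oa signal was not tested.

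Markers of myeloid cells are given in the same way. The summed level of 11 macrophage markers, 5 of them above noise on all 6 arrays, was 31006 to 35886 in B6, 38893 to 42277 in CIITA-/- and 37814 to 50326 in IAb-/- cells, led by Lyz2. In experiment 1 B6 was the highest instead, with 111477 in B6, 107991 in CIITA-/- and 100286 in IAb-/- for 10 of the genes. Adgre1, which encodes F4/80, was under the limit on all 6 arrays of experiments 2 and 3, as was Mrc1. The 8 neutrophil markers, of which 6 lay within noise, summed to 6225 to 6227 in B6, 7908 to 8144 in CIITA-/- and 9066 to 10068 in IAb-/-, mostly through Lcn2. No gene of either list was called (limma), and all 7 measured T cell markers lay within noise. Their part in the DM differences was not tested.

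**Figure D2:**
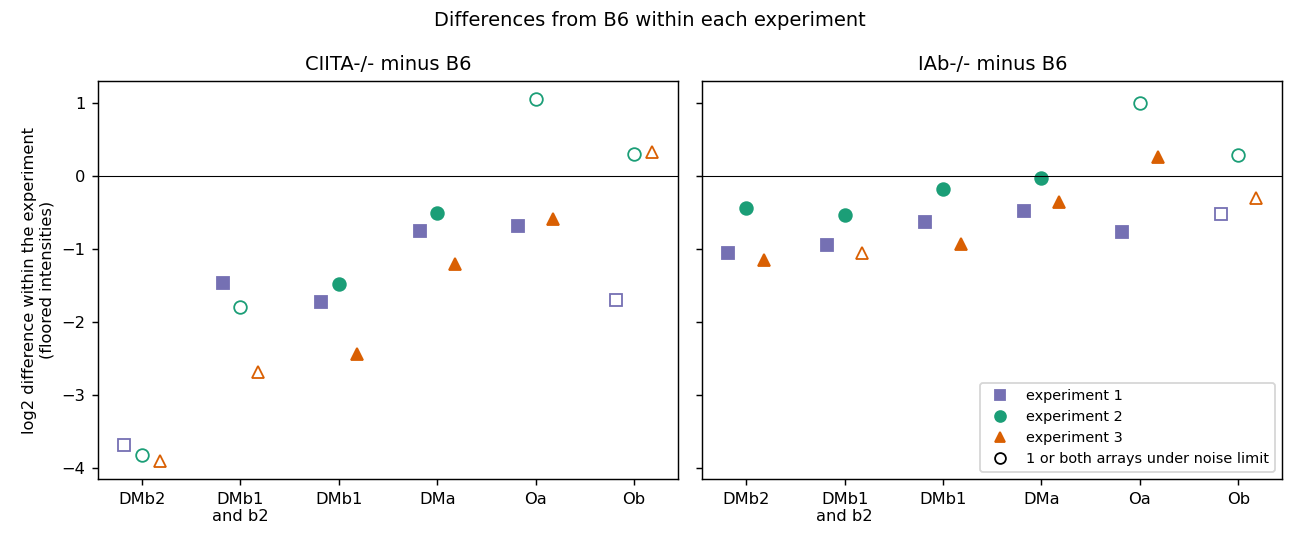
Log2 difference from B6 within each experiment (CIITA-/- left, IAb-/- right) for each member probe set on both designs, on intensities raised to the 30th percentile of their table. Each point is 1 pair of arrays, and an open point has an array under the noise limit, so its size is not measured. The DM points of all 3 experiments lie below 0 in both panels, from about -3.8 for H2-DMb2 to -0.82 for H2-DMa (means over experiments) on the left, and the H2-Oa points lie on both sides.

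The DM loss in CIITA-/- cells was graded. In each experiment the measured share of the B6 level was lowest for H2-DMb2, next for H2-DMb1 and highest for H2-DMa. H2-DMb1 against H2-DMa does not depend on values within noise: the log2 difference of H2-DMb1 minus that of H2-DMa was -0.97, -0.97 and -1.23 (mean -1.06, SD 0.15, n = 3 experiments). For H2-DMb2 the order holds as a bound against H2-DMa in all 3 experiments. Against H2-DMb1 it holds as a bound in experiment 1 alone (no more than 17.2% against 30.3%), since in experiments 2 and 3 the limit itself lies at 40.2% and 37.5% of B6. The probe set of both DMb genes, 98034_at, is outside this order. In experiment 1 it stood at 36.1% of B6, above H2-DMb1 at 30.3%, and its CIITA-/- values in experiments 2 and 3 lay under the limit. As the uptake of each DMb probe set from the other gene is uncertain, the order is one of probe sets.

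The difference between members was tested on ratios within an array, which need no scaling between arrays. Over 20 pairs of members and comparisons, 3 arrays against 3 allow an exact two-sided permutation p of 0.1 at the smallest, so no pair could pass. With arrays exchanged only within an experiment, a choice made after the data were seen, the smallest p is 0.25. Between CIITA-/- and B6, H2-DMb1 against H2-DMa, H2-DMb1 against H2-Oa and H2-DMa against H2-Oa each reached the smallest value (exact permutation p = 0.1, 0.2 after adjustment over the 20 pairs, and 0.25 within experiments). In this comparison, pairs with H2-DMb2 or H2-Ob rest on values within noise and are not read. Pairs with H2-Oa hold 1 value under the noise limit, that of B6 in experiment 2 (1600), so the size of their experiment 2 difference is not measured. The log2 difference of H2-DMb1 minus that of H2-Oa was -1.03, -2.53 and -1.85, and that of H2-DMa minus that of H2-Oa was -0.06, -1.56 and -0.62. In experiment 1, then, H2-DMa and H2-Oa stood at nearly one share of the B6 level, 59.5% and 62.0%. The contrast of H2-DMa with H2-Oa rests on experiments 2 and 3, and in experiment 2 on the H2-Oa value of B6 under the limit.

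The second comparison sets IAb-/- cells, labelled for the loss of a classical chain, against B6. The DM genes were lower than in B6 by value in all 3 experiments, by less than in CIITA-/- cells, and none passed. H2-DMb2 read 6144, 3112 and 2039 in IAb-/- cells, which is 48.1%, 73.5% and 44.9% of B6. H2-DMb1 read 21089, 13488 and 7598, or 64.6%, 88.0% and 52.5%. H2-DMa read 17562, 13853 and 9720, or 71.8%, 97.9% and 78.2%. The same order of the 3 genes thus stood in each experiment, with the smallest differences in experiment 2. Both comparisons use the same B6 arrays, so their orders are not independent. The log2 difference of H2-DMb2 minus that of H2-DMb1 was -0.42, -0.26 and -0.23 (exact permutation p = 0.2, 0.308 after adjustment, 0.25 within experiments), and that of H2-DMb1 minus that of H2-DMa was -0.15, -0.15 and -0.57 (exact permutation p = 0.3, 0.4 after adjustment, 0.25 within experiments).

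Fitted log2 differences between IAb-/- and B6 were -0.80 for H2-DMb2 (SE 0.24, 95% interval -1.43 to -0.17), -0.56 for H2-DMb1 (SE 0.46) and -0.19 for H2-DMa (SE 0.36), with limma adjusted p of 0.988, 1 and 1. Leaving out 1 array moved them between -1.10 and -0.49 for H2-DMb2, -0.97 and -0.14 for H2-DMb1 and -0.45 and 0.06 for H2-DMa. In this comparison 1 of 9312 probe sets (0.0107%) was called, no member among them; 401 had an unadjusted p under 0.05, of the members H2-DMb2 alone. IAb-/- and B6 did not overlap in experiments 2 and 3 for H2-DMb2, H2-DMb1 and 98034_at (2450 and 1661), a pattern found for 15.7% of 4618 probe sets; for H2-DMa they overlapped. A lower value in all 3 experiments was found for 475 of 3417 probe sets (13.9%).

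The spike-in controls read high in IAb-/- of experiment 2 and low in that of experiment 3. Differences of the DMb genes were smallest in experiment 2 and largest in experiment 3. That of H2-DMa was also smallest in experiment 2, but was larger in experiment 1 (-0.48) than in experiment 3 (-0.35). Set against the controls of the same arrays, the log2 differences of IAb-/- from B6 in experiments 1, 2 and 3 became -1.11, -0.97 and -0.83 for H2-DMb2, and -0.68, -0.71 and -0.60 for H2-DMb1. For H2-DMa they became -0.53, -0.55 and -0.02. On that scale the differences of the DMb genes in experiment 2 were no smaller than in experiment 3. Scaling to the controls was chosen after the data were seen. With it the median log2 difference of all probe sets in this comparison was -0.08, against 0.005 without it, and no member passed. The controls themselves differed between IAb-/- and B6 by 0.05, 0.52 and -0.33 in experiments 1, 2 and 3. The shifts of experiments 2 and 3 were therefore opposite, and that median hides their size. Between CIITA-/- and B6 the median was -0.12 with the scaling and 0.01 without it. The fitted differences there became -4.003 for H2-DMb2, -2.10 for H2-DMb1 and 0.09 for H2-Oa, with a 95% interval of -2.03 to 0.03 for H2-DMa.

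H2-Oa was again without a common direction. IAb-/- arrays read 4739, 3200 and 3433, which is 58.9% of B6 in experiment 1, at least 1.88-fold higher in experiment 2 and 119% in experiment 3. In experiments 2 and 3 both IAb-/- values exceeded both B6 values, as for 16.8% of 4618 probe sets. The fitted log2 difference of 0.63 (SE 0.40, 95% interval -0.42 to 1.68) did not pass (limma adjusted p = 1). Relative to the spike-in controls the differences were -0.82, 0.48 and 0.59.

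Between CIITA-/- and IAb-/- cells, H2-DMb2 again had the lowest log2 difference of the members by value, with its CIITA-/- values under the noise limit. Its level in CIITA-/- cells was at least 2.79-fold, 1.83-fold and 1.20-fold lower than in IAb-/- cells of experiments 1, 2 and 3. As shares these bounds are no more than 35.9%, 54.7% and 83.4%. Only in experiment 1 does the bound lie below the share of H2-DMb1 given next. The log2 difference of H2-DMb2, -3.06 (SE 0.24), did not pass over the 6 arrays (limma adjusted p = 0.0914), where 1 of 9312 probe sets (0.0107%) was called lower. CIITA-/- cells had 47.0%, 40.8% and 35.1% of the IAb-/- level of H2-DMb1 and 82.9%, 71.8% and 55.4% of that of H2-DMa (limma adjusted p = 0.937 and 1). CIITA-/- values of both genes lay below the IAb-/- values of the same experiment; for H2-DMa the groups of experiments 2 and 3 overlapped, as 9943 in CIITA-/- exceeded 9720 in IAb-/-. Lower CIITA-/- values in all 3 experiments were found for 470 of 3417 probe sets (13.8%), and groups of experiments 2 and 3 that do not overlap, with CIITA-/- lower, for 12.1% of 4618. H2-Oa was close in experiments 1 and 2 (105% and 104% of IAb-/-) and was at 55.7% in experiment 3.

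The order of the groups was thus B6, IAb-/-, CIITA-/- in every experiment for the DM probe sets on both designs, by value; for 98034_at in experiment 3 the last 2 lay within noise. B6 and IAb-/- were not separated beyond their spread for H2-DMa, which overlapped. For H2-DMb1 and 98034_at the 95% intervals fitted over 6 arrays, -1.75 to 0.64 and -1.78 to 0.19, hold 0. In the fit over all 9 arrays described below they were -1.11 to -0.06 and -1.51 to -0.18. These intervals are not adjusted over the probe sets. No member, H2-DMb2 included, passed between IAb-/- and B6 in either fit. IAb-/- and CIITA-/- overlapped for H2-DMa in experiments 2 and 3. For H2-Oa no neighbours were separated across the 3 experiments.

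**Figure D3:**
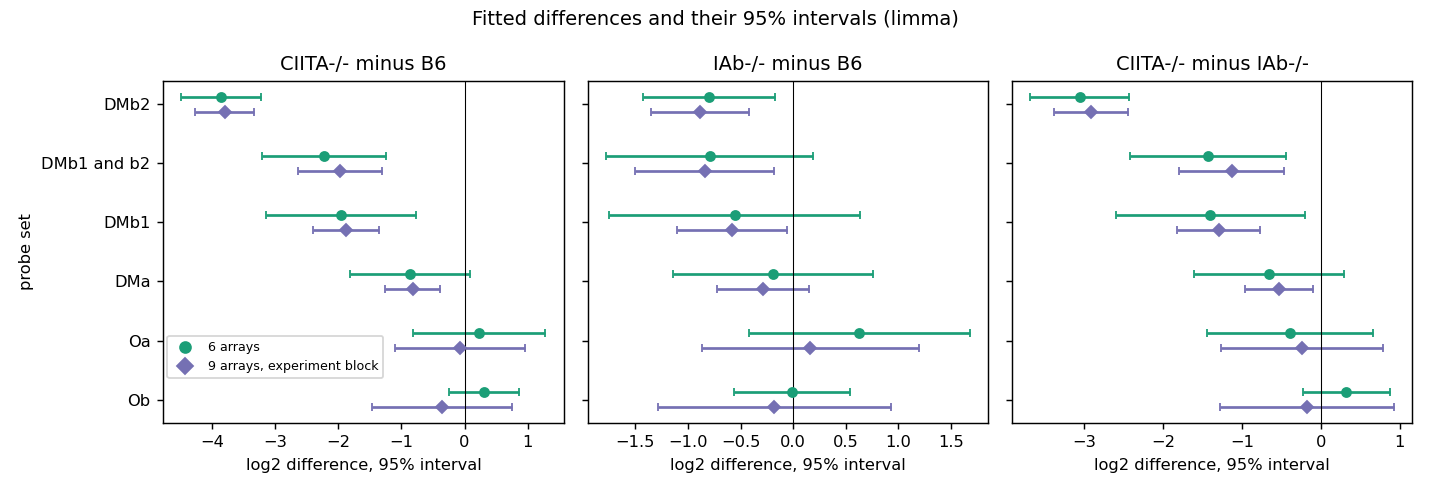
Limma log2 differences with 95% intervals for each member probe set on both designs, from the 6 arrays of experiments 2 and 3 (circles) and from all 9 arrays with the experiment as a term (diamonds). The H2-DMb2 interval lies below 0 in all 3 panels, and the intervals of H2-Oa and H2-Ob hold 0 in all of them; intervals are not adjusted over the probe sets.

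Experiment 1 was run on another array design, so a fit over all 9 arrays carries the experiment as a term and tests 8145 shared probe sets. With it the difference between CIITA-/- and B6 was -3.80 for H2-DMb2 (SE 0.19, limma adjusted p = 0.0079), -1.88 for H2-DMb1 (SE 0.21, adjusted p = 0.268) and -0.82 for H2-DMa (SE 0.17, adjusted p = 0.898). Of all probe sets 4 were called lower (0.0491%), and H2-DMb2 ranked 2nd by p, H2-DMb1 5th, 98034_at 7th, H2-DMa 25th and H2-Oa 7139th. In this fit H2-DMb2 also passed between CIITA-/- and IAb-/- cells (log2 -2.92, SE 0.19, limma adjusted p = 0.0226, with 3 of 8145 called lower, 0.0368%). All CIITA-/- values of H2-DMb2 lay under the noise limit, so its fitted differences from that group give no measured size. No member passed between IAb-/- and B6, where no probe set was called and 385 had an unadjusted p under 0.05. H2-Oa was at -0.08 between CIITA-/- and B6, with a 95% interval of -1.10 to 0.95.

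The losses of H2-DMb1 and H2-DMa were smaller than those of the classical class II chain genes H2-Aa, H2-Ab1 and H2-Eb1. H2-Aa and H2-Ab1, the alpha and beta chains of I-A, and H2-Eb1 were all under the limit on every CIITA-/- array. Their levels there were bounded at no more than 6.51% of B6 for H2-Aa, 9.86% for H2-Ab1 and 6.53% for H2-Eb1 in any of the 3 experiments. Each of these bounds lies below the measured shares of H2-DMb1 and H2-DMa in the same experiment; the bounds on H2-DMb2 do not allow the same comparison. Cd74, the invariant chain whose fragment H2-DM removes, was at 238%, 106% and 110% of B6. In IAb-/- cells Cd74 was at 193%, 131% and 91.8% of B6, so the high share of experiment 1 was not particular to CIITA-/- cells. The B6 array of that experiment read 14649, against 34924 in CIITA-/- and 28200 in IAb-/-.

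In the wider class II pathway, fixed as a list of 26 genes that holds none of the members, 22 of 23 measured genes were tested and 2 were called lower between CIITA-/- and B6, H2-Aa and H2-Eb1. None was called higher, and the median log2 difference was -0.07 against 0.01 over all probe sets. H2-Ab1 had a log2 difference of -6.12 on the raised scale and did not pass over the 6 arrays (limma adjusted p = 0.28). In the fit over all 9 arrays with the experiment as a term it passed (limma adjusted p = 0.0445). Proteases of the same endosomes were at 0.03 (Ctss), -0.21 (Ctsl), 0.29 (Ctsb) and 0.39 (Ctsd), and the thiol reductase Ifi30 at -0.14. Between IAb-/- and B6 none was called, and between CIITA-/- and IAb-/- H2-Aa was called lower.

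**Figure D4:**
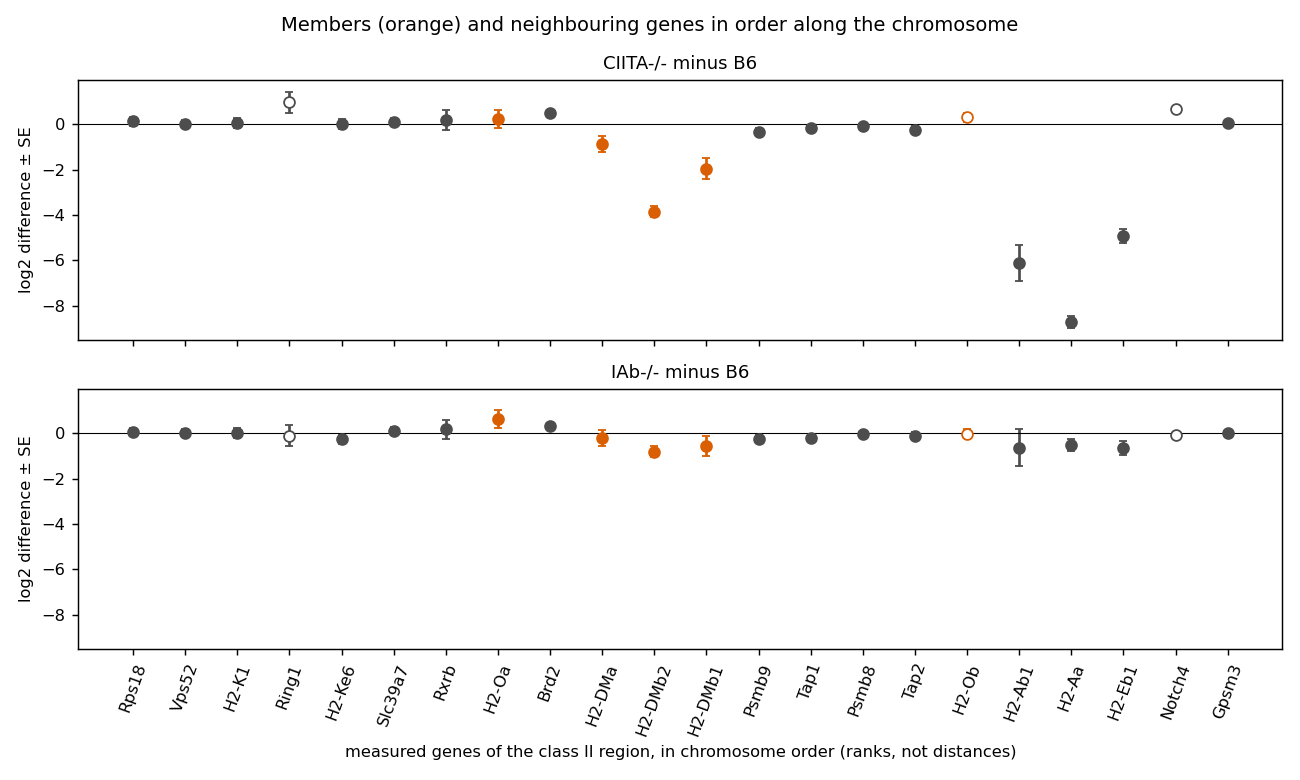
Limma log2 difference ± SE (6 arrays) of the measured genes of the class II region in their order along chromosome 17, at equal steps that are not distances, with the DM and DO genes in orange. Open circles are genes under the noise limit on every array. H2-DMa, H2-DMb2 and H2-DMb1 lie together at -0.86, -3.86 and -1.96 between CIITA-/- and B6, with Brd2 and Psmb9 beside them at 0.50 and -0.35.

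Along chromosome 17 the members are neighbours in the order H2-Oa, Brd2, H2-DMa, H2-DMb2, H2-DMb1, Psmb9, Tap1, Psmb8, Tap2 and H2-Ob, by the gene order of GRCm38.p6. The 3 DM genes that were lower in CIITA-/- cells are adjacent. Genes on either side had smaller differences: Psmb9 and Psmb8, subunits of the immunoproteasome, had log2 differences of -0.35 and -0.08, and Tap1 and Tap2, which carry peptides for class I, -0.15 and -0.26. Brd2, a bromodomain protein encoded between H2-Oa and H2-DMa, was at 0.50 over these 6 arrays and at -0.37 in experiment 1. Of 18 neighbouring genes fixed as a list, 17 were measured, 16 tested and none called in any comparison (limma, adjusted p under 0.05). The 16 tested differed by -0.36 to 0.98 between CIITA-/- and B6 and by -0.25 to 0.41 between IAb-/- and B6. The values -0.36, 0.98 and 0.41 are of Pbx2, Ring1 and B3galt4, under the noise limit on all 6 arrays. The 10 neighbours above the limit on all 6 differed by -0.35 to 0.25 and by -0.22 to 0.19.

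Genes whose levels ran most like those of a member were ranked by Pearson's r over the 9 arrays, with log2 values centred within each experiment, among 3070 probe sets above the noise limit on at least 2 arrays of each design. The coefficients share arrays and 3 groups, so they are a description. H2-DMb2, H2-Eb1, H2-Ab1 and H2-Aa were under the noise limit on every CIITA-/- array and entered through the B6 and IAb-/- arrays. Their coefficients thus rest in part on values within noise or raised to the floor. Nor does r compare sizes: Bag6, named below, read 4210, 3621 and 3744 in B6 and 3531, 2642 and 2984 in CIITA-/- cells. For H2-DMb2 the first 5 were H2-Eb1 (r = 0.986), H2-DMb1 (0.978), H2-Ab1 (0.974), Bag6 (0.968) and H2-Aa (0.967). For H2-DMb1 they were H2-DMb2, H2-DMa (0.977), H2-Ab1 (0.970), Egln1 (0.952) and Trappc10 (0.952). For H2-DMa they were H2-DMb1, Eloa (0.967), Cep350 (0.951), Rhot1 (0.941) and H2-Ab1 (0.930). H2-Oa had other neighbours, Rbbp6 (0.920), Nab1 (0.912), Ddx56 (0.903), Acp2 (0.901) and Nsmce3 (0.892), and its own r was 0.41 with H2-DMa, 0.26 with H2-DMb1 and 0.16 with H2-DMb2. No DM gene or classical chain stood among its first 5, and H2-Ob was not ranked because it was within noise.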

How the data were processed

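Transcript levels of 9 arrays were analysed from the tables the authors deposited, whose unit is intensity on a linear scale, 1 value per probe set and array (12488 probe sets for the 6 arrays of experiments 2 and 3, 12654 for the 3 arrays of experiment 1, 10043 in common). The algorithm and scaling that made them are not given in the sources used here. The scale was kept. Intensities under the 30th percentile of their table (123.5, or 93.2 in experiment 1) were raised to it and log2 was taken. Probe sets above it on at least 2 of the 6 arrays were tested (9312, controls left out) in R 4.3.3 with limma 3.58.1 (lmFit, eBayes), with 3 groups in one model and 3 residual degrees of freedom; a call is a Benjamini-Hochberg adjusted p under 0.05. The number of arrays limits the precision. Symbols come from the platform's annotation: for experiments 2 and 3, 10833 probe sets have 1 symbol, 396 several and 1193 none, and for experiment 1 the numbers are 10276, 363 and 1949. Where a listed gene has several probe sets, the brightest was used. All members were named, the listed pathway and neighbouring genes were given as counts, and the 5 genes most like each member by r were named. Members, gene lists, tests and the noise limit were chosen with earlier results of these data known. The test script was checked on simulated data. Same-numbered arrays deviated from their group means with correlations of 0.05 (B6 and CIITA-/-), 0.08 (B6 and IAb-/-) and 0.21 (CIITA-/- and IAb-/-) over 9312 probe sets. Alternatives were other floors, filters, normalizations, an intensity trend, the experiment as a block and each array left out.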

Additional observations from a re-analysis of the deposited data

How the results depend on the processing

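H2-DMb2, H2-DMb1 and 98034_at were lower by value in all 17 alternatives in each of the 3 comparisons, and H2-DMa (93092_at) in all 17 except between IAb-/- and B6, where it was 0.063 without IAb-/- replicate 3 (range -0.45 to 0.063). Between CIITA-/- and B6 the count of called members went from 1 to 0 with the floor at the noise limit (H2-DMb2 log2 -1.37, limma adjusted p = 0.46), with no filter (adjusted p = 0.108), with the replicate block over 6 arrays (adjusted p = 0.201, 0 probe sets called in all and 606 with an unadjusted p under 0.05) and with any 1 array left out (0 to 0). The correlations of same-numbered arrays do not show that the numbers pair them. Between CIITA-/- and IAb-/- the count went from 0 to 1, H2-DMb2, with the filter at the noise limit (limma adjusted p = 0.0173), with the replicate block over 9 arrays (0.0226) and with spike-in scaling (0.0237). With the floor at the noise limit the H2-DMb2 log2 difference there was -0.57 over the 6 arrays and was not called. Between IAb-/- and B6 the count stayed at 0. H2-Oa between CIITA-/- and B6 turned to -0.075 with the block over 9 arrays, -0.19 without B6 replicate 2 and -0.16 without CIITA-/- replicate 2 (range -0.19 to 0.65 with an array left out), and between CIITA-/- and IAb-/- to 0.00011 without CIITA-/- replicate 3 (range -0.79 to 0.00011). H2-Ob, within noise, turned to -0.36 (CIITA-/- against B6) and -0.18 (CIITA-/- against IAb-/-) with the block over 9 arrays, and between IAb-/- and B6 to 0.12 without B6 replicate 3 and 0.15 without IAb-/- replicate 3 (range -0.17 to 0.15). Between CIITA-/- and B6, with H2-Ob within noise, H2-DMa less H2-Ob turned to 0.070 without replicate 3 (range -1.17 to 0.070) and H2-Oa less H2-Ob to -0.078 without replicate 1 (range -0.078 to 0.88). The cause of these turns was not tested. Over all probe sets, the 9 calls of CIITA-/- against B6 ranged from 0 to 14 (14 with no filter, 5 with floors at the 40th and 50th percentiles, 4 with the filter at the noise limit and with the block over 9 arrays, 3 with that floor and with an intensity trend, 0 to 1 with an array left out), the 1 of IAb-/- against B6 from 0 to 5 and the 2 of CIITA-/- against IAb-/- from 0 to 7. Floors at the 40th percentile, spike-in scaling and exchange within experiments were chosen after the data were seen. A floor at the 20th percentile was not run, since that percentile lies below 0 (-32 and -132) and has no log. With 1 array left in a group, that array is assumed to vary like the others. Signal over background limits H2-Ob, 162346_f_at and the size of the H2-DMb2 loss.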
